A study of Homo sapiens with 15 samples.

Results

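The ubiquitin-conjugating enzymes (E2s) of the UBE2 family were examined in LNCaP, a human prostate cancer cell line that carries the androgen receptor. Members were the rows of the expression table whose name begins with UBE2, without antisense rows and without names that end in P and a number, which mark pseudogenes. The table held 48 UBE2 rows among 17272 genes. No row was antisense, 13 were left out as pseudogenes by their names, and 35 were members. All 35 had a mean of at least 1 CPM. GENCODE classes 34 of them as protein coding and UBE2L4, whose name escaped the pattern, as a processed pseudogene.

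By the sample labels, the 10 control libraries (R1881_DMSO) came from LNCaP treated with 1 nM of the synthetic androgen R1881. The 5 combination libraries (R1881_Darolutamide) came from LNCaP treated with 1 nM R1881 and darolutamide, an antagonist of the androgen receptor. The labels call the darolutamide dose high, and the methods of the paper give it as 2 µM. All 15 were taken after 22 h, and all cells had first been starved of steroids for 2 days in charcoal-stripped serum. Since all 15 then received R1881, no library shows cells without androgen. All libraries are of 1 cell line in culture, and the paper calls them biological replicates. The labels do not say which came from separate cultures, so p-values cover the spread among these libraries, which may in part be technical. The labels also number the libraries in runs, 51 to 55 and 71 to 75 for R1881 and 86 to 90 for the combination. No run holds both treatments, so a difference between the treatments and one between the runs cannot be told apart.

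An E2 accepts ubiquitin, or a ubiquitin-like protein, as a thioester from an E1 activating enzyme and passes it on, mostly with an E3 ligase that picks the substrate. The E2 often sets which kind of chain is built. UBE2C and UBE2S start and extend the chains by which the anaphase-promoting complex (APC/C) marks mitotic cyclins, and UBE2T acts with the Fanconi anemia ligase FANCL. UBE2J1, UBE2J2, UBE2G1 and UBE2G2 serve the removal of misfolded proteins from the endoplasmic reticulum (ER), UBE2A, UBE2B and UBE2N with UBE2V1 or UBE2V2 act in the tolerance and signalling of DNA damage, and some E2s carry SUMO, NEDD8 or ISG15 in place of ubiquitin.

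The R1881 libraries held 15830745 to 24316740 reads and the combination libraries 21870398 to 25317567. Mitochondrial transcripts took 2.65% to 3.02% of the R1881 reads and 3.12% to 3.94% of the combination reads. All 8 prostate luminal markers were in the table. Their summed level was 7649 to 8845 CPM with R1881 and 4368 to 4523 CPM in the combination. There 6 were called lower and 2 higher, beside 23.7% lower and 22.8% higher over all genes. Of the markers of other cells, 0 of 4 immune, 1 of 4 endothelial (VWF), 3 of 6 fibroblast and 1 of 3 basal (KRT14) genes were in the table. The fibroblast genes summed to 6.36 to 10.5 CPM with R1881 and 13.5 to 30.6 CPM in the combination, and VWF to 2.08 to 2.84 and 3.56 to 4.10 CPM. The part of these shifts in the results was not tested.

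With darolutamide, 19 of the 35 UBE2 genes fell, 1 rose and 15 did not pass the test (limma on log2(CPM + 0.5), adjusted p under 0.05 over all genes). Over all 17272 genes, 23.7% were called lower and 22.8% higher by the same rule. The median log2 difference of the members was -0.15. For 12 members the combination values were all under the R1881 range, and for 0 members all over it, while 12.6% of all genes were separated downward and 10.8% upward. Scaled by library totals in place of the deposited scale, 13 members were lower and 4 higher, against a background of 17.5% lower and 30.8% higher, and the median of all genes moved up by 0.066. Against the R1881 libraries 51 to 55 alone 19 members were lower and 1 higher (22.4% and 19.4% of all genes). Against the libraries 71 to 75 alone 14 were lower and 2 higher (19.1% and 19.5% of all genes).

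**Figure D1:**
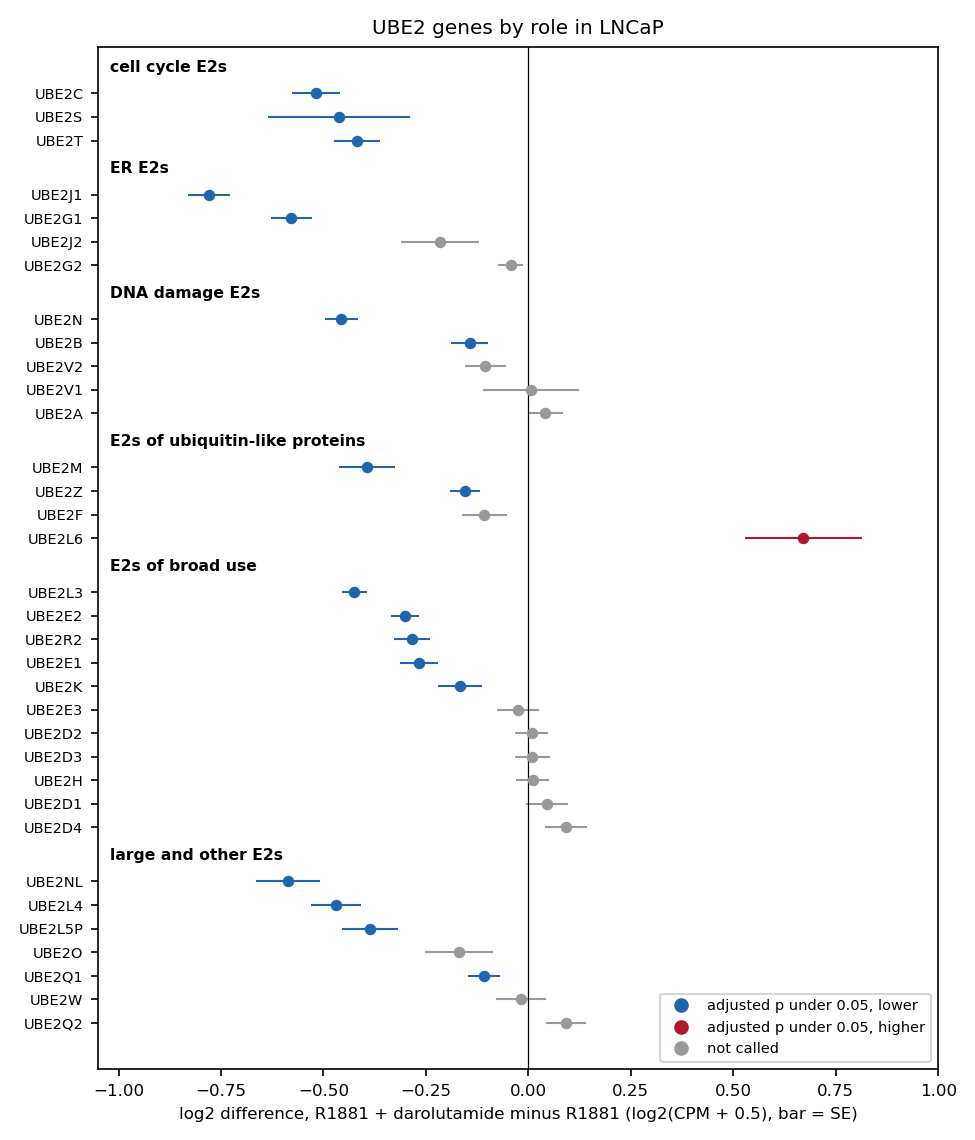
Log2 difference of 34 UBE2 genes between R1881 with darolutamide (n = 5) and R1881 (n = 10), in groups by role; points are limma estimates on log2(CPM + 0.5) and bars are standard errors. UBE2J1 lies farthest to the left at -0.78, all 3 cell cycle E2s lie below 0, and UBE2L6 at 0.67 is the 1 member called higher.

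By role, lower calls fell on 3 of 3 cell cycle E2s, 2 of 4 ER E2s and 2 of 5 DNA damage E2s. They also fell on 3 of 5 E2s of ubiquitin-like proteins, 5 of 11 E2s of broad use and 4 of 7 large or other E2s. Over all genes, 23.7% were called lower. The role groups are small and were not tested against each other. The median log2 differences of these groups were -0.46, -0.40, -0.10, -0.12, -0.03 and -0.17. In bulk RNA, fewer cells that express a gene and less of its RNA per cell cannot be told apart.

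All 3 cell cycle E2s were lower with darolutamide, though UBE2S only unsteadily. UBE2C (chromosome 20, 45812576 to 45816957, plus strand; GENCODE on GRCh38) lay between 26.7 and 35.0 CPM with R1881, with a median of 28.2 CPM. In the combination libraries 1 to 5 it was at 20.4, 19.0, 20.8, 21.1 and 19.7 CPM. These values are close together and all lie below the lowest R1881 library. The log2 difference was -0.52 with a standard error of 0.06 (limma adjusted p = 9.87e-07), and mean CPM fell by 30.8%.

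UBE2T (chromosome 1, 202331544 to 202341984, minus strand) ranged from 43.9 to 54.1 CPM with R1881 around a median of 49.2 CPM. The combination libraries held 37.0, 39.4, 40.0, 32.3 and 36.6 CPM. The groups did not overlap, and replicate 4 was the lowest. The fit gave a log2 difference of -0.42 (SE 0.06, limma adjusted p = 7.46e-06).

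UBE2S (chromosome 19, 55399745 to 55407788, minus strand) ranged from 38.8 to 64.8 CPM with R1881 around a median of 47.8 CPM. In the combination it was at 29.8, 32.9, 22.2, 64.1 and 38.2 CPM. Combination libraries 1, 2, 3 and 5 lay below every R1881 library, while replicate 4 lay among the highest R1881 values. The log2 difference was -0.46 with a standard error of 0.17 (limma adjusted p = 0.0363). Without combination replicate 4 it was -0.68 (limma adjusted p = 0.00014) and without replicate 3 it was -0.30 and not called. The call was also lost with edgeR, with DESeq2, with library totals, against either run of R1881 libraries alone, and without any 1 of R1881 replicates 1, 5 and 6 or combination replicates 1 and 2.

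Reads of UBE2S are hard to separate from those of its copies. Of the 50-base stretches of its canonical transcript, 26.1% occur elsewhere in the genome, as do 54.4% of those of the pseudogene UBE2SP1 and 46.9% of those of UBE2SP2, and 2 loci account for the matches of UBE2S. The copies had means of 28.7 and 35.2 CPM with R1881, against 49.1 CPM for UBE2S. Their log2 differences were -0.47 and -0.48, next to -0.46 for UBE2S, and combination replicate 4 was the highest combination library for both, at 36.4 and 44.5 CPM. UBE2C shares 2.61% of its stretches and UBE2T shares 0%.

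The promoters of UBE2S and UBE2T, as the cell cycle members that RefSeq's table on GRCh38.p14 holds, are shown with searched motifs in capitals. All windows were searched on both strands for CCAAT, the NF-Y box, for TTTGAA and TTTAAA, forms of the cell cycle homology element, for GCGGGAA, an E2F core, for AGAACA, an androgen receptor core site, and for CCACG, a part of the ER stress response element. No motif here overlaps another. Both run 5′ to 3′ on the minus strand up to the annotated start. The 48 bases of the UBE2T window that lie inside the GENCODE gene were cut.
UBE2S, chr19:55407789-55408038: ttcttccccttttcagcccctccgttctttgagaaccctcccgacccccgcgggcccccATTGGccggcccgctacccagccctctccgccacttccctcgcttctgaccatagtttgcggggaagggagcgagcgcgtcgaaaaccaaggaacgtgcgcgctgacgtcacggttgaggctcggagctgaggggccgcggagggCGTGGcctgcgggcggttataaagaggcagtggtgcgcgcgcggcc
UBE2T, chr1:202341985-202342186: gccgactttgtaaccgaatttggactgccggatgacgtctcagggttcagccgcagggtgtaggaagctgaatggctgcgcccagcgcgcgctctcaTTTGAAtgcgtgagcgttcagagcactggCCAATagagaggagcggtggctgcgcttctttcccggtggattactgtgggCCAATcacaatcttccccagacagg

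UBE2S holds CCAAT and CCACG on the opposite strand, 191 and 46 bases before its start. UBE2T holds CCAAT 124 and 73 bases and TTTGAA 153 bases before the RefSeq start, with CCACG 40 bases before it in the stretch that was cut. Of 35116 windows of 250 bases before RefSeq starts, 32.01% hold CCAAT, 13.3% hold TTTGAA, 33.5% hold CCACG, 11.3% hold TTTAAA, 5.52% hold GCGGGAA and 12.4% hold AGAACA. Of the 37 windows of the 25 member genes in that table, 10, 2, 20, 3, 2 and 1 do, and UBE2M holds the 1 with AGAACA. A match describes the letters only.

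Genes of mitosis fell beside these E2s. All 10 genes of a mitosis list (MKI67, TOP2A, CCNB1, CCNB2, CDK1, PLK1, AURKA, BUB1, CCNA2 and CDC20) were called lower. Over all genes 23.7% were, and the median log2 difference of the list was -0.55. The summed level of these genes was 743 to 969 CPM with R1881 and 552 to 619 CPM in the combination. Their median also differed by -0.25 between the R1881 libraries 71 to 75 and 51 to 55. In that comparison 6 of 10 were called, against 1.10% of all genes. UBE2C followed the same order, with a mean of 30.9 CPM in the libraries 51 to 55, 27.5 CPM in 71 to 75 and 20.2 CPM in the combination. The part of dividing cells in the fall of the cell cycle E2s was not tested.

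Of 16 subunits and activators of the APC/C, 4 were lower, 1 was higher and 11 were not called, with a median log2 difference of -0.08. The share of lower calls is near the 23.7% of all genes. The activator CDC20, also on the mitosis list, fell by 0.54 on the log2 scale (52.5 ± 3.59 CPM, SD, n = 10, to 36.1 ± 3.52 CPM, SD, n = 5; limma adjusted p = 8.49e-07). The subunit ANAPC13 fell by 0.29 (limma adjusted p = 8.4e-05).

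The largest fall of all members was in the ER group. UBE2J1 (chromosome 6, 89326625 to 89352722, minus strand), a membrane-anchored E2 of the ER, lay between 111.8 and 131.1 CPM with R1881 around a median of 120.8 CPM. The combination libraries held 68.7, 74.9, 77.6, 60.9 and 69.8 CPM. The groups were far apart, with the highest combination library well below the lowest R1881 library. This gave a log2 difference of -0.78 (SE 0.05, limma adjusted p = 8.53e-10), and mean CPM fell by 41.8%. It was -0.80 against the libraries 51 to 55 and -0.76 against 71 to 75.

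The promoter window of UBE2J1 in RefSeq, on GRCh38.p14 and the minus strand, holds CCACG 245 and 231 bases before the start, marked in capitals. It is shown as that of the member with the largest fall.
UBE2J1, chr6:89352723-89352972: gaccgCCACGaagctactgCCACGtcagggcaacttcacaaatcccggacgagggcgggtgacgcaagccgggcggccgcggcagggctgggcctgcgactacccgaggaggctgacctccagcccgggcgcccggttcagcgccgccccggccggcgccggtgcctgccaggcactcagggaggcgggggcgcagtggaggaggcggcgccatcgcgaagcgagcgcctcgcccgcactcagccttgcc

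UBE2G1 (chromosome 17, 4269259 to 4366675, minus strand), a soluble E2 that builds lysine-48 chains, lay between 189.6 and 225.2 CPM with R1881 around a median of 212.3 CPM. Values in the combination were 142.8, 148.8, 154.4, 124.6 and 137.7 CPM. The groups did not overlap. The log2 difference was -0.58 (SE 0.05, limma adjusted p = 3e-08), and mean CPM fell by 33.1%. No searched motif was found in its promoter window, and 11.2% of its transcript stretches occur elsewhere in the genome.

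The other members of the ER group were not called. UBE2J2, also anchored in the ER membrane, had a log2 difference of -0.22 (SE 0.10, limma adjusted p = 0.0736), with 33.1, 33.0, 27.6, 48.4 and 32.6 CPM in the combination against 35.9 to 46.0 CPM with R1881. Combination replicate 4 was above all R1881 libraries and the rest were below all of them, and without replicate 4 the difference was -0.34 (limma adjusted p = 0.000315). UBE2G2, a soluble E2 of ER-associated degradation, stood at 75.4 ± 2.38 CPM (SD, n = 10) and a log2 difference of -0.04 (SE 0.03, limma adjusted p = 0.255).

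Partners in ER-associated degradation moved downward or were not called. Of 16 genes, 10 were lower, 0 higher and 6 not called, with a median log2 difference of -0.24, beside 23.7% lower and 22.8% higher over all genes. HERPUD1, a membrane component of the ligase complex, fell by 0.73 on the log2 scale (199 ± 7.06 CPM, SD, n = 10, to 120 ± 5.09 CPM, SD, n = 5; limma adjusted p = 4.02e-12). VCP, the ATPase that pulls substrates out of the membrane, fell by 0.30 (limma adjusted p = 7.29e-08).

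**Figure D2:**
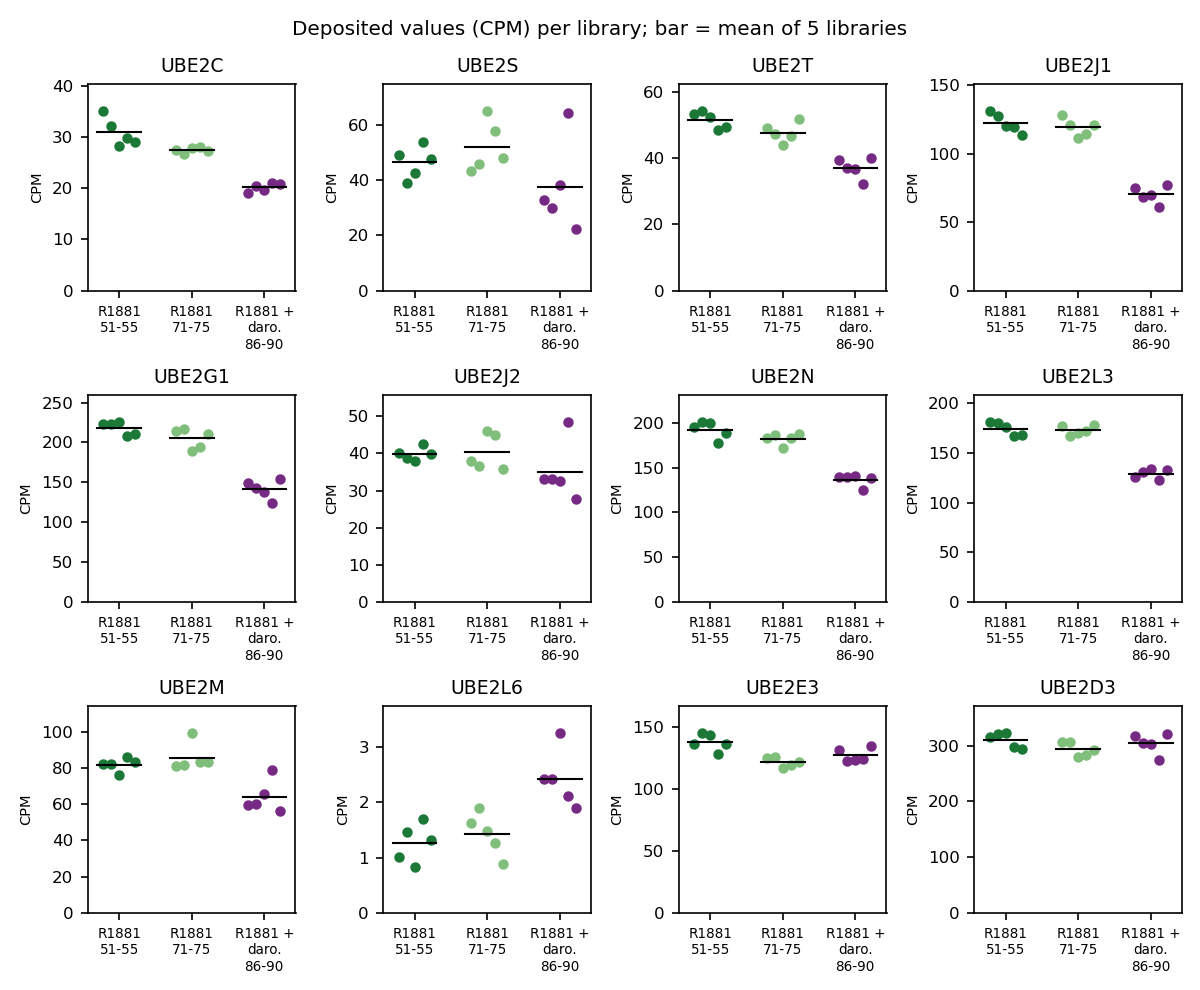
CPM of 12 UBE2 genes in each library (points) by run of library numbers, with the mean of 5 libraries as a bar; axes start at 0. UBE2C, UBE2T, UBE2J1, UBE2G1, UBE2N and UBE2L3 are separated between treatments, UBE2S, UBE2J2 and UBE2M have 1 high combination library, and UBE2D3 and UBE2E3 overlap.

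Among the DNA damage E2s, UBE2N had the largest fall. UBE2N (chromosome 12, 93405673 to 93441947, minus strand), which builds lysine-63 chains with a UBE2V partner, lay between 171.8 and 200.5 CPM with R1881 around a median of 187.0 CPM. The combination libraries held 139.5, 139.1, 138.4, 124.7 and 140.7 CPM. Replicate 4 lay apart below the others, and all lay below the R1881 range. The difference on the log2 scale was -0.46 (SE 0.04, limma adjusted p = 3.58e-08).

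The inactive partners that steer UBE2N were not called. UBE2V2 had a log2 difference of -0.10 (SE 0.05, limma adjusted p = 0.0941), and was called lower against the libraries 51 to 55 alone, without R1881 replicate 6 and with a GC correction (-0.16, limma adjusted p = 1.43e-06). UBE2V1 stood at 1.20 ± 0.29 CPM (SD, n = 10), or 14 to 40 reads a library, with a difference of 0.01 (SE 0.12), and 43.2% of its exon bases also belong to the readthrough gene PEDS1-UBE2V1. UBE2B, the E2 of RAD18 together with UBE2A, fell by 0.14 (SE 0.04, limma adjusted p = 0.0132), a call lost against the libraries 71 to 75 alone, without combination replicates 3 and 4 and with library totals, where the difference was -0.07 (limma adjusted p = 0.205). UBE2A had a difference of 0.04 (SE 0.04, limma adjusted p = 0.467) and was called higher with library totals (0.11, limma adjusted p = 0.0382).

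Of 10 ligases and partners listed for DNA damage E2s, 1 was lower, 3 were higher and 6 were not called. The median log2 difference was 0.04, beside 23.7% lower and 22.8% higher over all genes. The list also holds FANCL, the ligase of UBE2T, which is counted here among the cell cycle E2s. RNF8, a ligase that recruits UBE2N to damaged chromatin, rose by 0.30 (16.7 ± 0.78 CPM, SD, n = 10, to 20.8 ± 1.41 CPM, SD, n = 5; limma adjusted p = 6.08e-05). HLTF, a ligase that extends chains on PCNA, rose by 0.29 (limma adjusted p = 0.00115).

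The E2s of ubiquitin-like proteins moved in both directions. UBE2M (chromosome 19, 58555712 to 58558954, minus strand), an E2 of NEDD8, lay between 76.2 and 99.2 CPM with R1881 around a median of 82.7 CPM. With darolutamide the 5 libraries held 60.1, 59.5, 56.2, 78.8 and 65.7 CPM, of which only replicate 4 reached the R1881 range. The log2 difference was -0.39 (SE 0.07, limma adjusted p = 0.000106). The pseudogene UBE2MP1 shares sequence with it, and 18.6% of the stretches of UBE2M occur elsewhere.

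UBE2F, the other E2 of NEDD8, had a log2 difference of -0.11 (SE 0.06, limma adjusted p = 0.126). UBE2Z, which works with the E1 UBA6, fell by 0.15 (SE 0.04, limma adjusted p = 0.00219), a call that was lost when values were scaled by library totals.

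UBE2L6 (chromosome 11, 57551656 to 57568284, minus strand), the E2 of the interferon-induced modifier ISG15, was the 1 member that rose. It lay between 0.84 and 1.90 CPM with R1881 around a median of 1.39 CPM. The combination libraries held 2.43, 2.43, 1.89, 2.12 and 3.25 CPM. Only replicate 3 fell within the R1881 range, at its upper edge. The fitted log2 difference was 0.67 (SE 0.14, limma adjusted p = 0.000846) from 13 to 72 reads a library, and the ratio of mean CPM was 1.80, since the pseudocount shrinks the difference of a low gene.

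Among the 7 E1 activating enzymes, 3 were lower and 2 higher, beside 23.7% lower and 22.8% higher over all genes. UBA7, the E1 of ISG15, rose by 0.60 (3.28 ± 0.49 CPM, SD, n = 10, to 5.24 ± 0.79 CPM, SD, n = 5; limma adjusted p = 0.000183), and UBA3, a subunit of the E1 of NEDD8, rose by 0.27 (limma adjusted p = 0.000357). In the SUMO and NEDD8 pathways, 4 of 13 genes were lower and 2 higher, near those shares. The SUMO ligases PIAS1 and RANBP2 fell by 0.84 and 0.70 (limma adjusted p = 6.69e-10 and 9.72e-08). Of the 4 ubiquitin genes, 2 were lower and 0 higher, and UBB, a polyubiquitin gene, fell by 0.13 (limma adjusted p = 0.0204).

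Of 7 E2 enzymes or E2-like genes that do not carry the UBE2 name, 2 were lower and 2 higher, near the shares over all genes. ATG3, which joins LC3 to lipid in autophagy, rose by 1.45 on the log2 scale (60.2 ± 3.47 CPM, SD, n = 10, to 165 ± 10.8 CPM, SD, n = 5; limma adjusted p = 3.97e-14), a larger difference in size than that of any UBE2 member. AKTIP, which has an inactive E2 fold, rose by 0.43 (limma adjusted p = 7.57e-08).

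**Figure D3:**
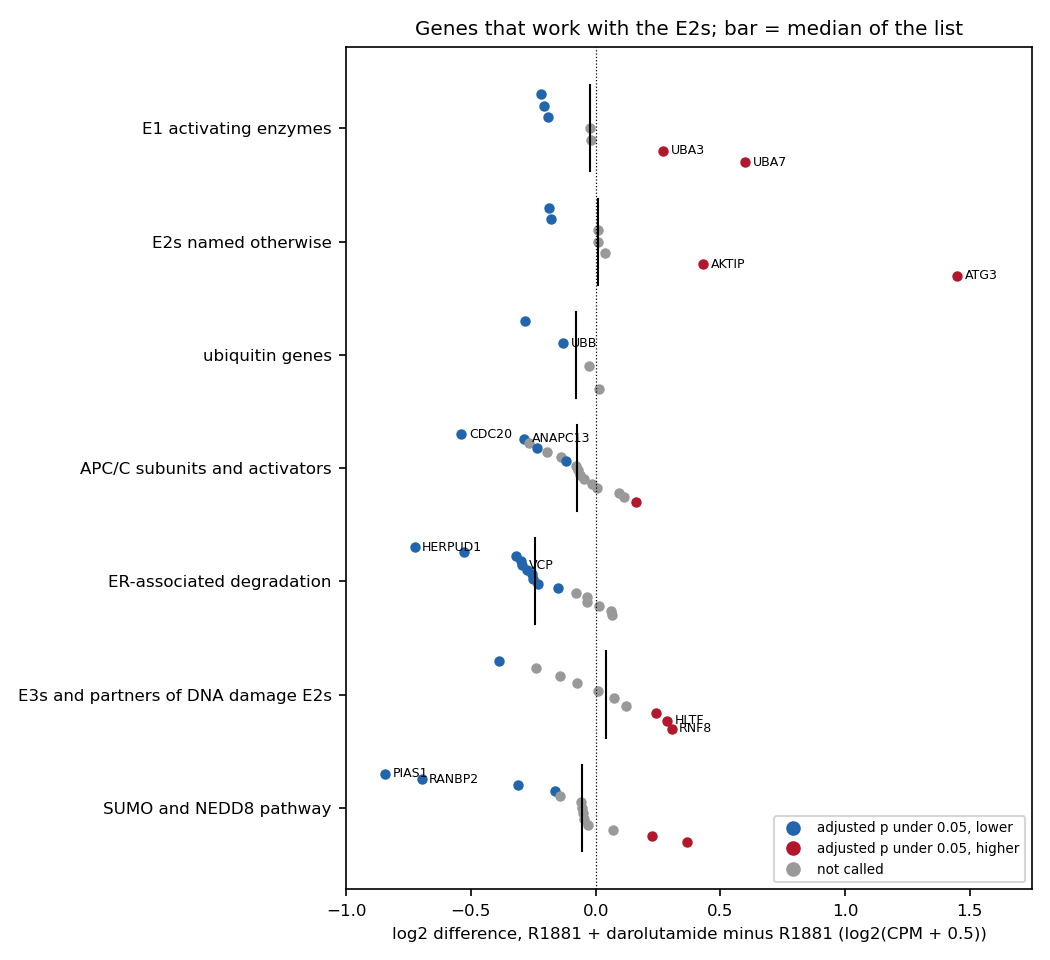
Log2 differences (R1881 with darolutamide minus R1881, log2(CPM + 0.5)) of the genes that work with the E2s, 1 point per gene, with the median of each list as a bar and up to 2 genes of smallest p named. In ER-associated degradation, 10 of 16 genes are called lower and 0 higher, and ATG3 stands apart at 1.45.

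The E2s of broad use, which serve many ligases, held both clear falls and members near 0. UBE2L3 (chromosome 22, 21549447 to 21624034, plus strand), an E2 of HECT and RING-between-RING ligases, lay between 167.0 and 180.9 CPM with R1881 around a median of 174.1 CPM. In the combination it was at 131.2, 126.1, 133.1, 122.6 and 133.4 CPM. The ranges are narrow and far apart. The log2 difference was -0.42 (SE 0.03, limma adjusted p = 2.76e-09).

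UBE2E2 lay between 71.4 and 81.3 CPM with R1881 around a median of 75.0 CPM, and at 62.9, 63.1, 60.3, 59.03 and 60.6 CPM in the combination. The groups were separate, with a log2 difference of -0.30 (SE 0.04, limma adjusted p = 1.35e-06). UBE2R2, a cullin-ligase E2, fell by 0.28, UBE2E1 by 0.27 and UBE2K by 0.17. UBE2K lost its call against the libraries 71 to 75 alone, without combination replicate 4 and with library totals, where the difference was -0.09 (limma adjusted p = 0.168).

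The UBE2D genes, which pair with a wide range of RING ligases, were not called. Their log2 differences were 0.05 for UBE2D1, 0.01 for UBE2D2, 0.01 for UBE2D3 and 0.09 for UBE2D4, with standard errors of 0.04 to 0.05. UBE2D3, at 302 ± 14.99 CPM (SD, n = 10), had the highest CPM of the family. UBE2H had a difference of 0.01 and UBE2E3 of -0.03. Scaled by library totals, UBE2D4 was called higher (0.16, limma adjusted p = 0.0183).

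Per kilobase of canonical transcript, the R1881 level was highest for UBE2E1, at 95.1 ± 5.05 CPM per kb (SD, n = 10), then 83.7 for UBE2E3, 81.0 for UBE2D3 and 72.4 for UBE2M. UBE2T stood at 56.5, UBE2C at 37.6, UBE2J1 at 29.03 and UBE2S at 19.2 CPM per kb. The lowest were UBE2V1 at 0.57 and UBE2L6 at 1.11 CPM per kb. Of the exon bases of UBE2V1, 43.2% also belong to PEDS1-UBE2V1, and 21.7% of its stretches occur elsewhere in the genome. The part of this in its low count was not tested.

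In the last group, the members that fell most share transcript sequence with other members, and UBE2NL and UBE2L4 have no intron. UBE2NL, on chromosome X, lay between 12.04 and 16.2 CPM with R1881 around a median of 13.3 CPM, and at 9.81, 8.65, 9.29, 7.21 and 9.44 CPM in the combination. Its log2 difference was -0.59 (SE 0.08, limma adjusted p = 6.13e-06), beside -0.46 for UBE2N, and 5.37% of its stretches occur elsewhere.

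UBE2L4, on chromosome 19, lay between 12.1 and 14.7 CPM with R1881 around a median of 13.3 CPM, and at 10.5, 9.71, 9.68, 8.44 and 9.31 CPM in the combination. UBE2L5P, on chromosome 13, lay between 13.7 and 17.7 CPM around a median of 15.5 CPM, and at 12.5, 12.1, 12.4, 10.4 and 11.3 CPM in the combination. Neither overlapped between groups. Their log2 differences were -0.47 (SE 0.06, limma adjusted p = 5.17e-06) and -0.39 (SE 0.07, limma adjusted p = 0.000143), beside -0.42 for UBE2L3, which shares stretches with both. Reads of these genes and of UBE2N and UBE2L3 may be split by the counting. Without UBE2NL, UBE2L4 and UBE2L5P, 16 of 32 members were lower and 1 higher, beside 23.7% lower and 22.8% higher over all genes.

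Of the large and other E2s, UBE2Q1 fell by 0.11 (SE 0.04, limma adjusted p = 0.0278). That call was lost against the libraries 71 to 75 alone, without any 1 of combination replicates 1, 2, 4 and 5 and with library totals, where the difference was -0.04 (limma adjusted p = 0.444). UBE2O, a large enzyme that joins E2 and E3 activity, had a difference of -0.17 (SE 0.08, limma adjusted p = 0.107) with combination replicate 4 highest at 66.8 CPM and the rest at 42.3 to 51.8 CPM. UBE2W, which attaches ubiquitin to protein N-termini, had a difference of -0.02 and UBE2Q2 of 0.09. UBE2Q2 was called higher with library totals (0.16, limma adjusted p = 0.0106), against the libraries 71 to 75 alone and with a GC correction.

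Related members were also compared with each other within every library, as the difference of log2(CPM + 0.5) of 1 gene and the other, called their log2 ratio here, on which the scaling acts only through the pseudocount. Of 15 pairs with a shared letter, or of UBE2A with UBE2B, 7 changed their ratio (two-sided exact permutation test over libraries, adjusted over 15 pairs; the smallest p possible was 0.000666). UBE2J1 to UBE2J2 went from 1.58 ± 0.17 (SD, n = 10) to 1.02 ± 0.42 (SD, n = 5), a change of -0.56 (95% interval -0.89 to -0.24, exact permutation adjusted p = 0.00571). This call was lost against the libraries 71 to 75 alone, where the change was -0.54. With 1 library left out the change ranged from -0.68 to -0.39. Combination replicate 4 had the lowest ratio, at 0.33. The canonical transcripts of UBE2J1 and UBE2J2 have 38.9% and 59.5% GC, so an effect of GC content need not cancel in their ratio. Its part in the change was not tested. UBE2G1 to UBE2G2 changed by -0.54 (95% interval -0.64 to -0.43, exact permutation adjusted p = 0.002).

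UBE2E3 parted from both its relatives, though 32.7% of its transcript stretches occur elsewhere in the genome. It was also called between the runs of R1881 libraries. Its difference with darolutamide was -0.11 against the libraries 51 to 55 and 0.06 against 71 to 75. UBE2E1 to UBE2E3 changed by -0.24 (95% interval -0.31 to -0.17) and UBE2E2 to UBE2E3 by -0.28 (-0.36 to -0.19), each with an exact permutation adjusted p of 0.002. UBE2A to UBE2B rose by 0.19 (0.12 to 0.25), UBE2Q1 to UBE2Q2 fell by 0.20 (-0.30 to -0.10), and UBE2L3 to UBE2L6 fell by 1.10 (-1.44 to -0.75). The 6 pairs among UBE2D1 to UBE2D4, UBE2E1 to UBE2E2 and UBE2V1 to UBE2V2 were not called. Among these 8, the interval was narrowest for UBE2D2 to UBE2D3, at -0.04 to 0.04, and widest for UBE2V1 to UBE2V2, at -0.17 to 0.39.

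**Figure D4:**
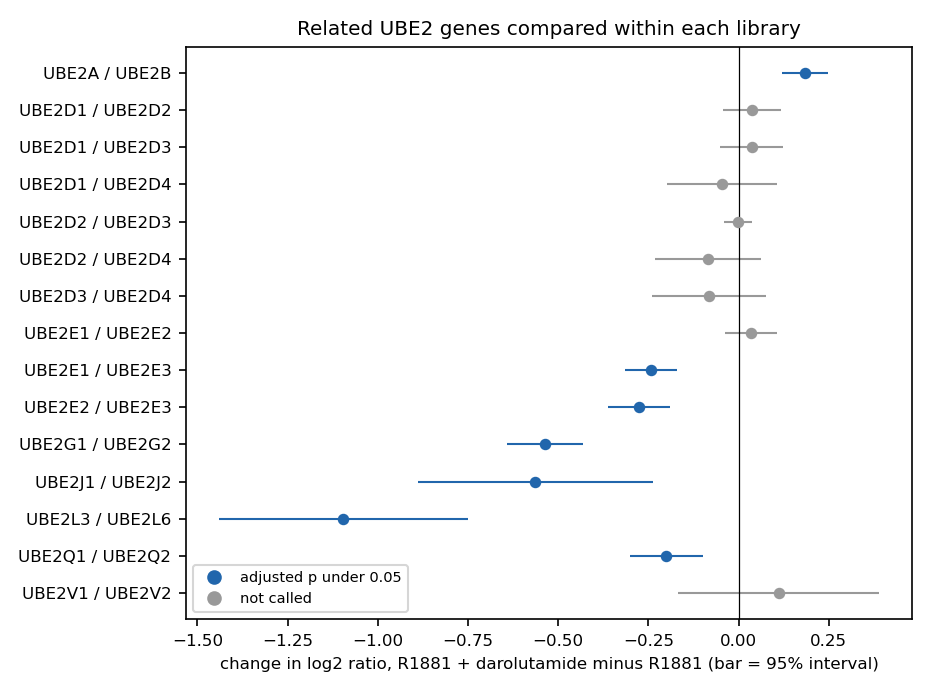
Change in the log2 ratio of 15 pairs of related UBE2 genes between R1881 with darolutamide (n = 5) and R1881 (n = 10), with 95% intervals from the pooled SD. UBE2G1 to UBE2G2 and UBE2J1 to UBE2J2 lie near -0.55, while the pairs of UBE2D genes have intervals that include 0.

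Between the runs of R1881 libraries, which had the same treatment by their labels, 1 of 35 members was called, against 1.10% of all genes. UBE2E3 averaged 138 CPM in the libraries 51 to 55 and 122 CPM in 71 to 75, a log2 difference of -0.18 (limma adjusted p = 0.0475). The runs did not overlap for 3 members, UBE2E3, UBE2Q2 and UBE2C, against 6.61% of all genes. For UBE2C the run difference was -0.16 (limma adjusted p = 0.172), and its difference with darolutamide was -0.60 against the libraries 51 to 55 and -0.44 against 71 to 75, called in both. The comparison of the runs and those with darolutamide use the same R1881 libraries, and both comparisons with darolutamide use the same combination libraries.

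Combination replicate 4 stood apart from the other 4 combination libraries over the family. It was below all of them for 24 of 35 members and above all of them for 6, among them UBE2C, UBE2S, UBE2O, UBE2J2 and UBE2M. Of the 26 members whose canonical transcript has under 50% GC, 26 were lower in replicate 4 than the mean of the others, and of the 9 with at least 50% GC, 6 were higher. Over the 35 members, which share these libraries, its deviation and the GC content had a Spearman rho of 0.77 and a Pearson r of 0.72. The deviation was 1.07 on the log2 scale for UBE2S (55.7% GC), 0.61 for UBE2J2 (59.5%) and -0.24 for UBE2T (42.8%). Without replicate 4, UBE2J2 and UBE2O were called lower and UBE2Q2 higher.

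**Figure D5:**
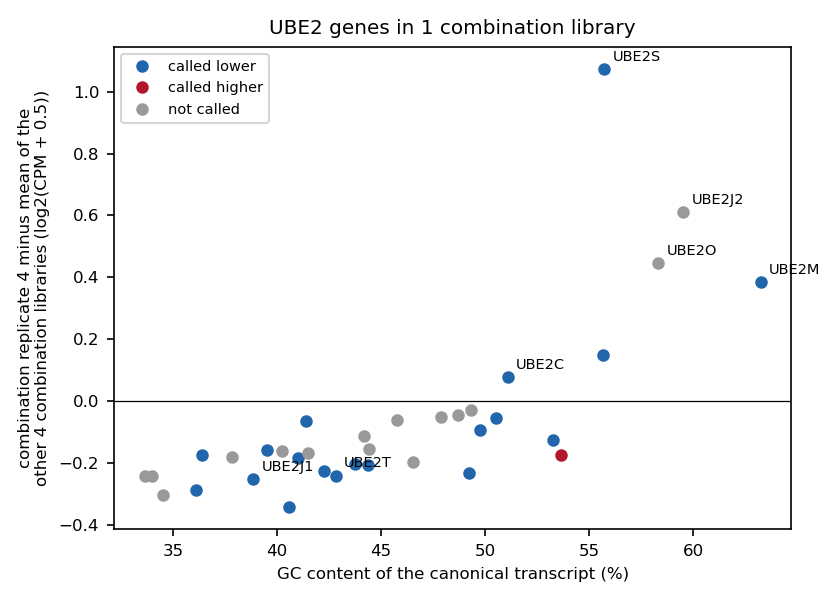
Combination replicate 4 minus the mean of the other 4 combination libraries (log2(CPM + 0.5)) for each of 35 UBE2 genes, against the GC content of the canonical transcript. Members under 50% GC all lie below 0, and UBE2S, UBE2J2, UBE2O and UBE2M lie highest.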

How the data were processed

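LNCaP libraries were sequenced by the authors as 50-base single-end reads from a stranded poly(A) kit, aligned to GRCh38 with STAR, counted with featureCounts and expressed as CPM; versions and annotation of these steps are not given in the sources used here. What the authors deposited is a signal per gene on a scale near CPM and is called CPM here. Columns summed to 1005403 to 1078567, and 100% of values were whole reads (tolerance 0.001 reads) times 1 factor per library. limma 3.58.1 (trend) was fitted to log2(CPM + 0.5) over all 17272 genes without a filter, with Benjamini-Hochberg adjustment. On simulated data with 100 changed genes for each size, limma recovered 64 at 0.5 and 91 at 1 on the log2 scale, with 3 false calls among 17072. Far fewer genes changed in the simulation than were called in the data, and it held no run or GC effect. These rates therefore need not hold for the data. Counting error is covered only as spread between libraries.

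Groups follow the sample labels; the methods of the paper swap the sizes of the groups and give R1881 in µM. Members, roles, partner lists and motifs were chosen with earlier results of these data known, and the paralogue comparison, the GC correction and the fit with 3 groups of library numbers were added later. Named genes were all members, with full values for the cell cycle E2s and for calls of at least 0.3 in size, and the 2 partner genes of smallest p in each list. Positions and canonical transcripts come from GENCODE 44, promoters from RefSeq. Alternatives were edgeR 4.0.16 and DESeq2 1.42.0 on recovered reads, library totals, pseudocounts of 0.1 and 1, a minimum mean of 1 CPM, a replicate block, either run of R1881 libraries, each library left out, and leaving out combination replicates 3 and 4 together. UBE2 genes absent from the table were not analysed here, and a few genes that enter the counts are not reported here by name.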

Additional observations from a re-analysis of the deposited data

Results flagged for a closer look

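Of 70 sets of values (35 UBE2 genes in each treatment), 5 held 1 library far from the rest by Dixon's test at the 95% level, where chance gives about 1 in 20 sets. In the combination, replicate 4 was such a library for 4 genes: UBE2J2 at 48.4 CPM (the others 27.6 to 33.1), UBE2V2 at 87.8 CPM (102 to 105), UBE2R2 at 98.7 CPM (114 to 119) and UBE2N at 124.7 CPM (138 to 141). With R1881, replicate 6 held 99.2 CPM of UBE2M, against 76.2 to 85.9 CPM in the other libraries. The falls of UBE2R2, UBE2N and UBE2M were called without combination replicate 4 too, at -0.24, -0.42 and -0.47 on the log2 scale.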

How the results depend on the processing

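Of the 20 called UBE2 genes, 14 kept their direction and call in all 27 refits: UBE2C, UBE2E1, UBE2E2, UBE2G1, UBE2J1, UBE2L3, UBE2L4, UBE2L5P, UBE2L6, UBE2M, UBE2N, UBE2NL, UBE2R2 and UBE2T. Among the rest, the calls of UBE2B, UBE2K, UBE2Q1, UBE2S and UBE2Z were lost in 1 or more, and no called gene changed sign. The members called lower numbered 13 to 22 over all settings (16 to 19 with 1 library left out). Those called higher numbered 4 when scaled by library totals, 2 against the libraries 71 to 75 and 2 with the GC correction. With 1 library left out they numbered 1 to 2. The calls over all genes moved too. With the GC correction, which gave the 22, 4693 of 14801 genes were lower and 4443 higher. Scaled by library totals, which gave the 13, 17.5% of all genes were lower and 30.8% higher. With 1 library left out, 3723 to 4781 of 17272 genes were lower. Between the runs, the 1 call became 0 with library totals, 3 with the GC correction and 0 to 1 with 1 library left out (0 without any 1 of replicates 2 to 10). Over all genes, the GC correction gave 403 lower and 296 higher of 14801 between the runs. Library totals gave 82 and 43 of 17272. Of the 73 partner genes, those called higher rose from 10 to 17 with library totals, while the share over all genes rose from 22.8% to 30.8%. The cause of these moves was not tested. In same-numbered libraries the deviations correlated by -0.139 to 0.335 and no library was closest to its own number. Combination replicates 1, 2, 3 and 5 were all closest to R1881 replicate 10. Pairs by number were thus not seen, but a spread shared by these libraries could hide them. With the replicate block 14 members were lower and 1 higher, beside 3165 and 3077 of 17272 genes. UBE2B, UBE2K, UBE2Q1 and UBE2S were among the members no longer called.

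The sign changed only for differences near 0 that were not called. With library totals it became 0.046 for UBE2E3, 0.053 for UBE2W and 0.028 for UBE2G2; with the replicate block 0.012 for UBE2E3. Against the libraries 51 to 55 it became -0.029 for UBE2D3, -0.022 for UBE2D2, -0.0090 for UBE2H and 0.016 for UBE2W, and against 71 to 75 0.063 for UBE2E3 and -0.064 for UBE2V1. UBE2V1 was at -0.015 with edgeR, -0.0033 with DESeq2 and -0.010 without combination replicates 3 and 4, where UBE2W was at 0.014. With the GC correction UBE2D1 was at -0.016. With 1 library left out the ranges were -0.010 to 0.046 for UBE2D3, -0.022 to 0.039 for UBE2D2, -0.015 to 0.050 for UBE2H, -0.054 to 0.043 for UBE2W and -0.039 to 0.057 for UBE2V1. Of the paralogue ratios, UBE2D1 to UBE2D2 became -0.022, UBE2D1 to UBE2D3 -0.033 and UBE2V1 to UBE2V2 -0.011 against 71 to 75, UBE2D2 to UBE2D3 became 0.0073 against 51 to 55, and with 1 library left out UBE2D2 to UBE2D3 ranged from -0.012 to 0.0066 and UBE2E1 to UBE2E2 from -0.00049 to 0.058. UBE2V1 and UBE2L6 are limited by few counted reads, at 13 to 72 a library.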

Other observations

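Among the 13 rows left out of the family for a pseudogene name, 7 were lower with darolutamide and 2 higher (limma adjusted p under 0.05). Over all genes, 23.7% were called lower and 22.8% higher by the same rule. The largest difference was that of UBE2FP1, on chromosome 3, which lay between 3.21 and 4.54 CPM with R1881 and at 0.72, 0.73, 0.40, 0.99 and 0.45 CPM in the combination, a log2 difference of -1.94 on the log2(CPM + 0.5) scale (SE 0.11, limma adjusted p = 1.02e-10). Its name points to UBE2F, which was not called (-0.11), and 0% of its 50-base stretches occur elsewhere in the genome. UBE2Q2P2, on chromosome 15, is classed by GENCODE as a long noncoding RNA. It lay between 1.29 and 2.69 CPM with R1881 and at 3.39, 4.004, 5.99, 5.28 and 4.79 CPM in the combination. Its log2 difference was 1.01 (limma adjusted p = 4.3e-06), while UBE2Q2 was not called (0.09). UBE2NP1 and UBE2CP3 had log2 differences of -0.59 and -0.53, beside -0.46 for UBE2N and -0.52 for UBE2C.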
